A study of Mus musculus with 2 samples.

Results

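Droplets taken as empty in 2 mouse single-cell RNA-seq libraries were summed to give the free RNA of each: 1 library from a B16 tumour and 1 from an unchallenged lymph node. A droplet was a member when its barcode held 11 to 100 unique molecular identifiers (UMIs, 1 for each captured transcript molecule) in total. This gave 69268 of the 193946 tumour barcodes with a UMI and 75220 of the 153212 lymph node barcodes with a UMI, or 144488 of 347158 in all. Both libraries came from sorted cells of C57BL/6 mice of the Foxp3Cre-YFP genotype, 5 to 8 weeks old, and the tumour was taken at day 14. Foxp3Cre-YFP mice carry a Cre recombinase and a yellow fluorescent protein under the Foxp3 gene, which is active in regulatory T cells. The labels name neither the sort gate nor the number of mice, and B16 is a pigmented melanoma line grown in C57BL/6 mice. With 1 library per group, tissue and library cannot be told apart and no test across samples was possible. Each ratio below therefore describes these libraries.

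Free RNA, often called ambient RNA, is the messenger RNA that broken cells leave in a cell suspension. In a droplet instrument every droplet takes up some of that fluid, so droplets without a cell still yield barcoded transcripts, and droplets with a cell carry them on top of the cell's own. Sorting removes most cells outside the gate, but the fluid can keep transcripts from cells that were removed or that broke on the way. Melanoma cells are known for the pigment pathway: tyrosinase (Tyr), Tyrp1 and Dct make melanin, Pmel and Mlana build and mature the melanosome, and Mitf and Sox10 are the transcription factors that drive these genes.

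Of the melanoma genes the results turn on, Dct lies at chr14:118012790-118052244 on the minus strand, and Foxp3, the regulatory T cell factor, lies at chrX:7573644-7595245 (GENCODE on GRCm38). The promoters of the pigment enzyme genes hold matches to the core of the shared element through which Mitf is known to act on them. The sequences are the 250 bases before the RefSeq start site (GRCm38.p6), written 5′ to 3′ on the gene's strand. Capitals mark CATGTG, the core of the element, or CACATG, the same letters on the other strand.
Dct, chr14:118052247-118052496, minus strand: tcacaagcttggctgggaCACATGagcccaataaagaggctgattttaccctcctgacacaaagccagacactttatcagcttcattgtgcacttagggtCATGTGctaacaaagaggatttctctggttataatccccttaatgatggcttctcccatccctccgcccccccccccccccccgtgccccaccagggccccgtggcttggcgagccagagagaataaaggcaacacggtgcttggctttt
Tyrp1, chr4:80833963-80834212, plus strand: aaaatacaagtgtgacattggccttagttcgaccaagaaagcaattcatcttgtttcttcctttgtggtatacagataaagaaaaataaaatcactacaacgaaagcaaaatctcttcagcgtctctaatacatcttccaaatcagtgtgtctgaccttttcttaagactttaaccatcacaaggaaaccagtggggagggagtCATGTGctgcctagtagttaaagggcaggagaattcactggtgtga
Tyr, chr7:87493513-87493762, minus strand: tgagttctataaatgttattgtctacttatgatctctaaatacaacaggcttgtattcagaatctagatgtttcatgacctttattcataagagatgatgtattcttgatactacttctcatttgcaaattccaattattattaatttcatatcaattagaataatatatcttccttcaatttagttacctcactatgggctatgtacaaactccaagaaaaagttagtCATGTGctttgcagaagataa
The match begins at base -46 from the start in Tyrp1, at -21 in Tyr, and at -232 and -150 in Dct. Of the 16 melanoma genes listed for these data, 10 were in the promoter table, and 7 of those 10 held the motif on either strand before at least 1 start site. The motif was also present in 4025 of all 32851 promoters of the table, or 12.3%, so a match is a description and not a site. Pmel and Mlana were not in the table.

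The tumour free RNA held 3763851 UMIs over 13295 genes, with a median of 53 UMIs and 50 genes per droplet. The lymph node free RNA held 2608616 UMIs over 12186 genes, with a median of 33 UMIs and 31 genes. These were 15.9% and 18.6% of all UMIs of their libraries. The called cells of the same library served as the reference: 1475 tumour barcodes with at least 3834 UMIs and 2213 lymph node barcodes with at least 1811 UMIs, with mitochondrial genes at 10% or less of a cell's UMIs and no fewer than 200 genes detected. They held 17987158 and 10724620 UMIs, so a median free droplet had 0.593% of the UMIs of a median tumour cell and 0.806% of those of a median lymph node cell. The edges of the window fell in a thin part of the tumour size distribution, with 73 droplets at 10 UMIs and 68 at 11, 107 at 100 and 116 at 101. At the same sizes the lymph node numbers were 150, 216, 15 and 12 droplets.

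**Figure D1:**
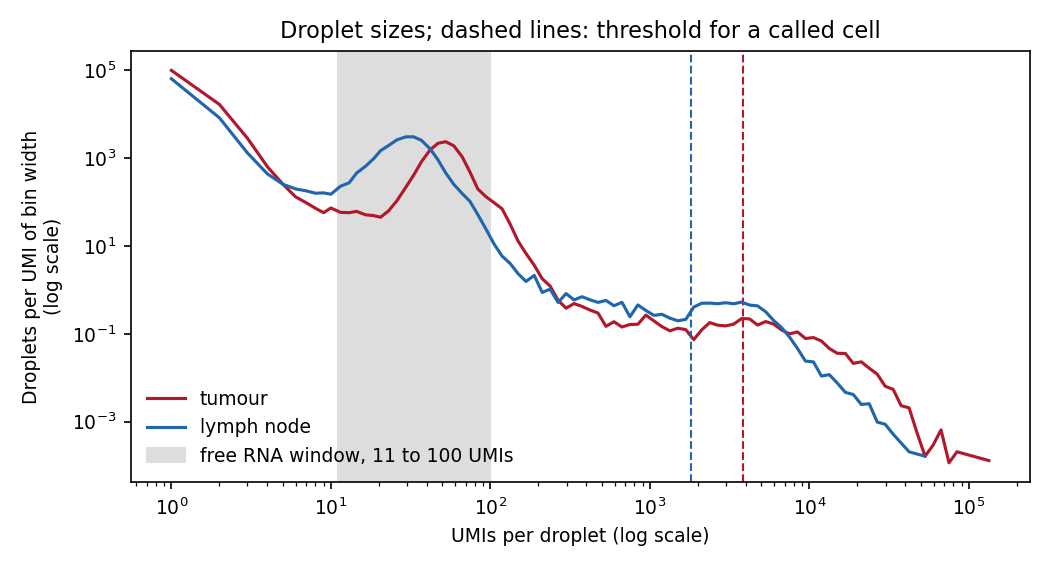
Droplets per UMI of bin width against UMIs per droplet, both on log axes, in the tumour (red) and lymph node (blue) libraries; shading marks the window of 11 to 100 UMIs and dashed lines the cell thresholds. The members form the hump of droplets around a median of 53 UMIs in the tumour and 33 in the lymph node, well below the thresholds of 3834 and 1811 UMIs.

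The 2 libraries shared barcodes. Of the free droplets, 6943 barcodes were members in both libraries, or 10.0% of the tumour members and 9.23% of the lymph node members. A further 459 lymph node members carried the barcode of a called tumour cell, or 31.1% of the tumour cells, whereas lymph node members were 10.2% of all 737280 barcodes listed. In 4 equal depth classes of the tumour cells from shallow to deep, 12.2%, 10.0%, 23.6% and 78.8% of them were lymph node members. In the other direction 217 tumour members carried the barcode of a called lymph node cell, or 9.81% of the lymph node cells, where tumour members were 9.40% of all barcodes. Deep tumour cells were thus found among the lymph node members more often than barcodes in general, and the reason was not tested. Between the called cells of the libraries 1 barcode was shared. The lymph node melanoma level and the list ratios between the free RNA pools that these droplets moved are given with and without them.

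Levels are given as counts per 1000000 UMIs of the pool (CPM), with exact 95% intervals that cover counting error only, since a library is 1 sample. A gene was called higher or lower when the ratio of its CPM was at least 2-fold, among genes with at least 50 UMIs over both pools. In the tumour, 43 of 9912 genes (0.434%) passed 2-fold upwards in free RNA relative to the called cells and 379 (3.82%) passed it downwards. Lymph node free RNA gave 123 of 8836 genes (1.39%) higher and 311 (3.52%) lower. The interval lay wholly beyond 2-fold for 1 of the higher and 40 of the lower genes in the tumour, and for 5 and 60 in the lymph node. Scaling to UMIs without mitochondrial and ribosomal protein genes shifted all log2 ratios by -0.05 in the tumour and -0.12 in the lymph node, and the lymph node split then became 59 higher and 404 lower. Setting the median ratio to 1 gave 48 higher and 455 lower there. Free RNA of each library followed its called cells closely, with Pearson's r between log2 UMIs of free RNA and cells of 0.97 over genes in the tumour and 0.96 in the lymph node. That correlation runs over genes of 1 library, which share its depth and gene features.

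A gene was counted as present only in free RNA when it had at least 10 UMIs there and 0 in the called cells of its library. No tumour gene met this (0 of 9600, or 0%), and 1 lymph node gene did (of 8847, or 0.0113%). The lymph node gene was Hba-a1, an alpha globin chain of red blood cells, with 16 UMIs in 16 droplets and 0 of 10724620 cell UMIs, a count of 0 that allows up to 0.280 CPM. Its free RNA level was at least 21.9-fold higher than that limit. Melanoma, myeloid, stromal and B cell transcripts were all also found in called cells. In the tumour the pigment genes and the more specific myeloid genes sat mainly in a few cells there, whereas most B cell, endothelial and dendritic cell UMIs did not.

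The cells with many such UMIs were set apart after the data were seen, by marker UMIs per cell. In the tumour 15 called cells held 253 to 3078 UMIs of Dct, Tyrp1, Pmel and Mlana, and the next cell held 13; they are called melanoma-high here. With a median of 70488 UMIs they were far deeper than the other cells and held 6.88% of all cell UMIs. Another 3 tumour cells held 104 to 717 UMIs of 6 defining myeloid genes (the next held 3), and 3 more passed a limit of 50 UMIs of MHC class II genes, for which 9 cells lay within 2-fold of that limit. In the lymph node 7 cells had at least 10 UMIs of 4 B cell markers, the highest 27, and the next cell had 8. The remaining 1454 tumour and 2206 lymph node cells formed a second reference. Against it 221 of 9523 tumour genes (2.32%) were higher in free RNA by the same call and 324 (3.40%) lower, with 129 of 8827 (1.46%) higher and 309 (3.50%) lower in the lymph node.

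The 4 melanoma markers gave 4497 UMIs in the tumour free RNA, or 1195 CPM (1160 to 1230), spread over 4268 droplets, or 6.16% of the members. No droplet held more than 3 of these UMIs. In all called tumour cells they stood at 974 CPM, or 81.5% of the free RNA level, but 96.8% of those cell UMIs lay in the 15 melanoma-high cells. In the remaining tumour cells they stood at 32.5 CPM, or 2.72% (2.48 to 2.98) of the free RNA level. Because the same 4 markers chose the cells that were removed, this low level is in part fixed by the split and is given as a description. The melanoma transcripts were therefore spread thinly over many free droplets, abundant in 15 cells, and low in the other cells. Foxp3 was at 0 in the 15 melanoma-high cells. The remaining cells held 0.190, 0.250, 0.463 and 0.581 of these UMIs per cell in 4 equal classes of rising depth, against 0.0649 per free droplet. In CPM these classes stood at 39.7, 34.8, 41.1 and 25.9.

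Dct, which converts dopachrome in the melanin pathway, had 1510 UMIs in tumour free RNA (401 CPM, 381 to 422) and 7885 in the called cells (438 CPM). Its level in free RNA was 0.915-fold that in the cells (0.866 to 0.967), and the remaining cells had 2.21% of the free RNA level (1.85 to 2.62), with 147 UMIs. Tyrp1, which stabilises tyrosinase and acts later in the pathway, had 1441 UMIs (383 CPM) against 4031 (224 CPM), a ratio of 1.71 (1.61 to 1.81). The remaining cells had 2.66% of its free RNA level. Tyr, the rate-limiting enzyme of melanin synthesis, was detected with 69 UMIs against 366, a ratio of 0.901, and the remaining cells held 10 UMIs, or 3.29% of the free RNA level. The ratios of Dct and Tyrp1, both in the same cells, differed beyond their counting intervals, and neither gene passed 2-fold.

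The structural genes gave the same order of magnitude. Pmel, the fibril protein on which melanin is laid down, had 737 UMIs (196 CPM) in free RNA and 2822 (157 CPM) in cells, with a ratio of 1.25 (1.15 to 1.35). Mlana, a melanosomal membrane protein, had 809 UMIs (215 CPM) against 2779 (154 CPM), with a ratio of 1.39 (1.28 to 1.51). Their levels in the remaining cells were 3.08% and 3.45% of those in free RNA. Gpnmb, a glycoprotein related to Pmel that macrophages also make, had 408 UMIs against 1798 and stood higher in the remaining cells, at 6.85% of free RNA. Among the transporters, Slc24a5, a melanosomal ion exchanger, had 181 UMIs and 16.2% of its free RNA level in the remaining cells. Slc45a2, another melanosomal transporter, had 175 UMIs and 5.06%. Gpr143, a melanosomal receptor, had 12 UMIs in free RNA, 30 in all called cells and 0 in the remaining cells. The regulators were sparser, with 45 UMIs of Mitf and 25 of Sox10 in free RNA, and 6.06% and 6.36% of those levels in the remaining cells.

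Relative to the melanoma-high cells alone, the free RNA level of the 16 genes ran from 4.96% for Sox10 to 13.2% for Gpr143, with 6.42% for Dct, 8.92% for Pmel, 10.0% for Mlana and 12.3% for Tyrp1. Relative to the cells that carried both, Tyrp1 was thus better represented in free RNA than Dct. Over the whole melanoma list the free RNA stood at 1536 CPM, all called cells at 1254 CPM and the remaining cells at 55.9 CPM. Of its 14 genes with enough UMIs, 0 were 2-fold higher and 0 lower in free RNA than in all called cells. Over all genes 0.434% were higher and 3.82% lower. The median log2 ratio of the list was 0.37 where all genes had -0.02.

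**Figure D2:**
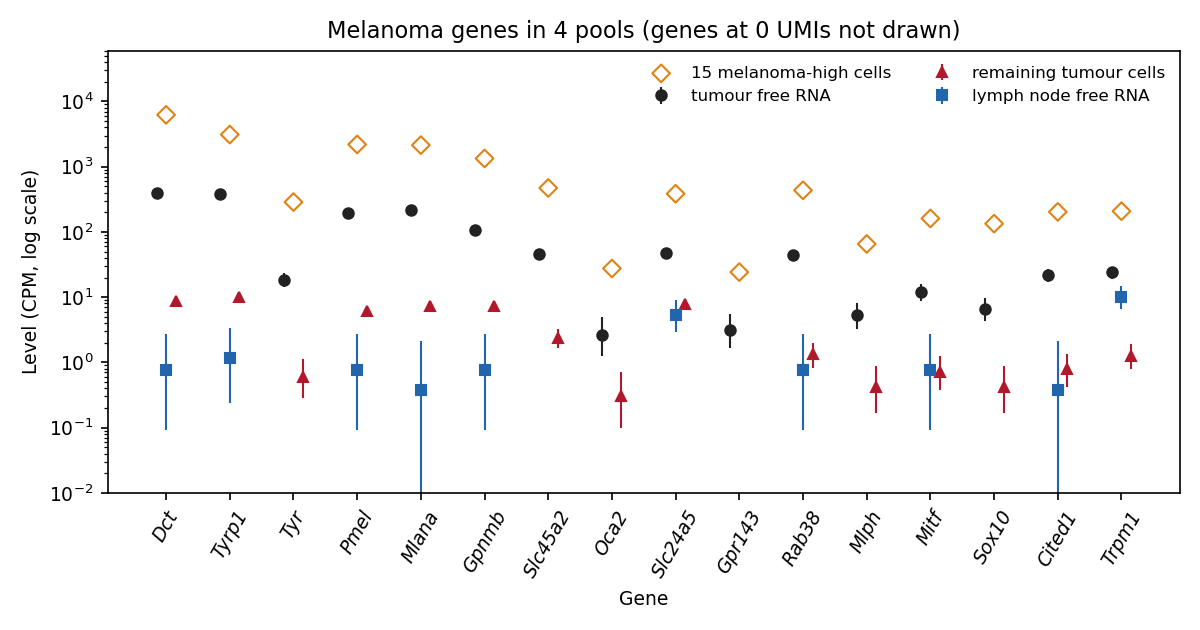
CPM of the 16 melanoma genes on a log axis in the 15 melanoma-high cells, tumour free RNA, the remaining tumour cells and lymph node free RNA; points are pool levels, bars on all but the melanoma-high cells are 95% counting intervals, and genes at 0 are not drawn. Every gene is ordered from melanoma-high cells through free RNA to the remaining cells, which sit at 2.21% to 3.45% of free RNA for Dct, Tyrp1, Pmel and Mlana.

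In lymph node free RNA the same 4 markers gave 8 UMIs, or 3.07 CPM (1.32 to 6.04): 3 of Tyrp1, 2 of Dct, 2 of Pmel and 1 of Mlana. The tumour level was 390-fold higher (198 to 903), or 3104-fold (557 to 122627) without the shared droplets described next; in such a pool, more cells of a type and more RNA per cell cannot be told apart. All 15 melanoma-high tumour barcodes were also lymph node members, with a median of 43 UMIs there, and 7 of the 8 UMIs lay on 5 of those droplets, at 9498 CPM. Without the 459 droplets whose barcode was a tumour cell, 1 marker UMI was left over 74761 droplets, or 0.385 CPM (0.00975 to 2.15). The lymph node signal of pigment genes therefore rested on barcodes shared with tumour cells. Slc24a5 and Trpm1, a cation channel of melanocytes, had 14 and 26 UMIs in lymph node free RNA but also 62 and 40 in lymph node cells, so they were not limited to melanoma here.

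Within the tumour library the 4 markers were distributed as 66.0% in melanoma-high cells, 17.5% in the free droplets and 11.5% in 14 deep barcodes over the mitochondrial limit, of which 5 had at least 50 marker UMIs. Other called cells held 2.15%, droplets between the window and the threshold 2.41%, and droplets of 1 to 10 UMIs 0.482%. By droplet size the marker level was 963, 1037, 1193, 1265 and 1092 CPM in tumour members of 11 to 20, 21 to 40, 41 to 60, 61 to 80 and 81 to 100 UMIs. Melanoma transcripts were present across the whole window, and no size class was free of them. The smallest class held 544 droplets and the class of 41 to 60 UMIs 41533.

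**Figure D3:**
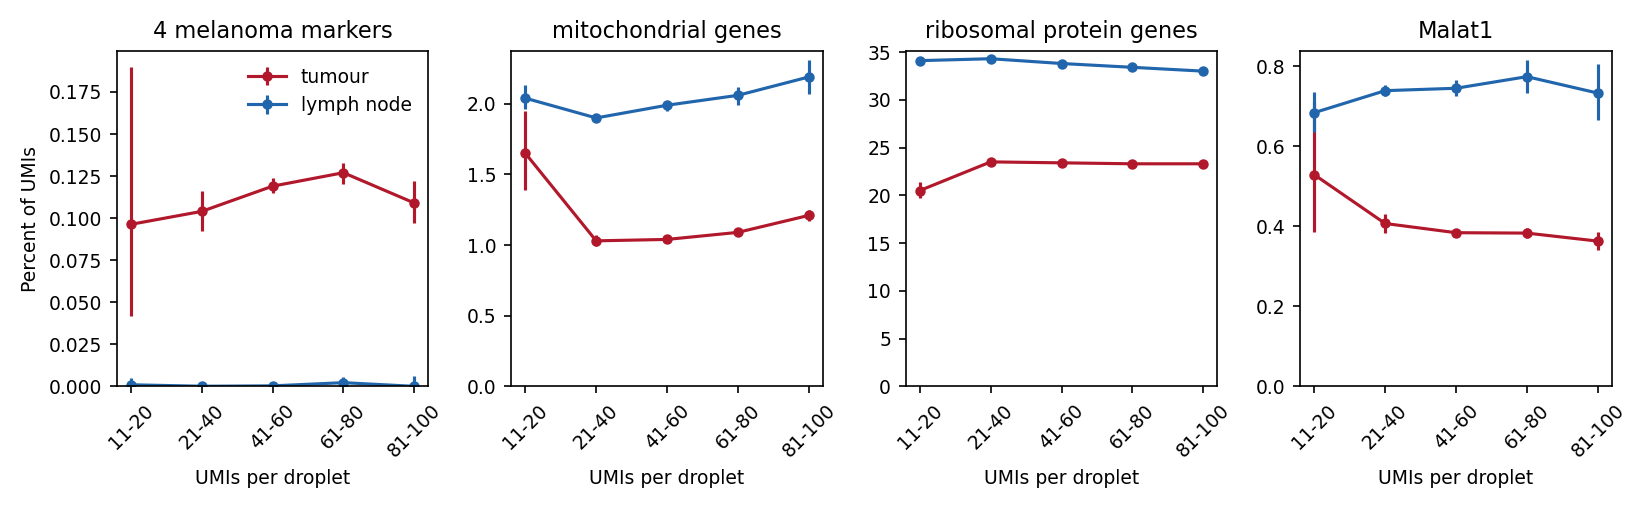
Percent of UMIs held by the 4 melanoma markers, mitochondrial genes, ribosomal protein genes and Malat1 in free droplets of 5 size classes, for each library (red, tumour; blue, lymph node), with 95% counting intervals. The mitochondrial share of the tumour is highest in the smallest class, at 1.65%, and that of the lymph node runs from 1.90% to 2.19%.

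Genes low in the remaining cells were sought over the whole table, as those with at least 20 free RNA UMIs and a remaining-cell level below 10% of the free RNA level. There were 119 such genes of 8267 in the tumour and 0 of 7387 in the lymph node. Genes concentrated in the cells set apart are low in the remaining cells by the split itself, so these counts describe what was removed. In the tumour the 15 melanoma-high cells held 6.88% of cell UMIs, whereas the 7 lymph node cells removed held 0.227%. The counts of the 2 libraries are therefore not alike. For 105 of the 119, most of the UMIs of called cells lay in the melanoma-high cells, for 12 in the myeloid-high cells, and for Cck and Hspb1 in neither. Besides the pigment genes, the first group held Cd63, a lysosomal and melanosomal tetraspanin (927 UMIs, 3.21%), Apoe, the lipid carrier (483 UMIs, 4.18%), and Gsta1, a glutathione transferase (281 UMIs, 1.86%). This group also held Ptgds, a prostaglandin synthase, with 356 UMIs, S100b, a calcium-binding marker of neural crest cells, with 123, and Car9, the hypoxia-induced carbonic anhydrase, with 204. Apoe is usually read as a macrophage gene, and here its cell UMIs lay mainly in melanoma-high cells. Hbb-bs was placed in this group by only 3 cell UMIs. The genes with 0 UMIs in the remaining cells and at least 10 in tumour free RNA numbered 7 (0.0729% of 9600), against the same 1 gene (0.0113%) in the lymph node. They were Cd302 (27 UMIs), Gm10639 (23), Mmp12, the macrophage elastase (18), Slc2a5, a fructose transporter (16), Gpr143 (12), Etv1 (11) and Syt9 (10). Gm10639 lies among near-identical glutathione transferase genes, so its reads, and those of Gsta1 and Gsta2, could be shared.

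Myeloid transcripts were present in both free RNA pools, and their ratio to the cells depended on how specific the genes are to myeloid cells. The macrophage and monocyte list stood at 618 CPM in tumour free RNA and 607 in all called tumour cells, a ratio of 1.02 (0.973 to 1.07), and at 384 in the remaining cells. Of its 14 genes with enough UMIs, 0 were higher and 0 lower, where 0.434% and 3.82% of all genes were. With shares that low, counts of 0 do not set these genes apart. For the lymph node the list stood at 173 against 145 CPM, a ratio of 1.19 (1.07 to 1.32). Most of these UMIs came from Ctsb, a lysosomal protease that T cells also make, with 1416 UMIs in tumour free RNA and 6686 in the cells.

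The 6 genes more specific to myeloid cells gave 194 UMIs (51.5 CPM) in tumour free RNA and 66.8 CPM in all called cells, of which 92.2% lay in 3 cells. The remaining cells had 9.83% (7.52 to 12.8) of the free RNA level. Because the same 6 genes chose the myeloid-high cells that were removed, this low level is in part fixed by the split. The same holds for the remaining-cell shares of Lyz2 and Fcer1g below, and all are given as a description. C1qb, a chain of the complement starter C1q made by macrophages, had 36 UMIs in free RNA against 262 in cells, a ratio of 0.657 (0.450 to 0.933). C1qa had 23 against 190 and C1qc 19 against 129. Lyz2, the lysozyme of macrophages and neutrophils, had 45 UMIs against 206, a ratio of 1.04, and the remaining cells had 7.06% of its free RNA level. Fcer1g, the signalling chain of Fc receptors, had 54 against 287 UMIs and 7.15%. The monocyte chemokines Ccl12, Ccl8 and Ccl6 had 47, 43 and 42 UMIs, and Il1b, the inflammatory cytokine, had 40. Wfdc17, a secreted protein of macrophages, had 74 UMIs and 4.30%. Pf4, a chemokine of platelets and macrophages, had 36 UMIs in free RNA and 178 in cells.

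In lymph node free RNA the 6 genes gave 21 UMIs (8.05 CPM) against 2.14 CPM in the cells, a ratio of 3.75 (1.98 to 7.09). C1qa, C1qb and C1qc were at 0 there. Lyz2 had 11 UMIs in free RNA and 12 in all 2213 cells, a ratio of 3.77 (1.51 to 9.33), although 4 of the 11 were in 1 droplet. Fcer1g had 8 against 6, a ratio of 5.48. These counts were too small for the 2-fold call, which asked for 50 UMIs. Of the 17 neutrophil and mast cell genes, only Ltf, an iron-binding granule protein, had UMIs in tumour free RNA. It had 15 there and 76 in the cells. The 84 tumour cell UMIs of the whole list were spread over 60 cells, with 15.5% in 3 cells.

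The ratios of antigen presentation genes lay on either side of 1, depending on the reference. The MHC class II list stood at 511 CPM in tumour free RNA and 689 in the cells, a ratio of 0.741 (0.706 to 0.778), and at 233 against 306 CPM in the lymph node, a ratio of 0.761. Against the remaining cells the ratios were 1.31 (1.25 to 1.38) and 1.09 (0.992 to 1.19), and 3 cells held 28.8% of the list's UMIs in tumour cells. Class II genes of this list also chose some of the tumour cells removed. The melanoma-high cells, removed too, held 30.2% of the list's tumour cell UMIs. The higher tumour ratio is therefore in part fixed by the split. Cd74, the invariant chain that escorts class II molecules, had ratios to all called cells of 0.547 and 0.620. H2-Aa, a class II chain, had 254 UMIs in tumour free RNA, 1192 in all called cells and 89 in the remaining cells. Melanoma-high cells held 60.2% of its cell UMIs, so these transcripts were not confined to the myeloid-high cells.

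Stromal transcripts were few. The fibroblast and pericyte list gave 131 UMIs in tumour free RNA (34.8 CPM) against 27.1 CPM in all called cells, a ratio of 1.29 (1.05 to 1.56), and 2.41 CPM in the remaining cells, or 6.93% of free RNA. Sparc, a matrix protein made by fibroblasts and by many tumours, gave 90 of those UMIs. Its 372 cell UMIs lay to 94.6% in melanoma-high cells. Fn1, fibronectin, had 23 UMIs against 62, and 83.9% of the latter lay in the same cells. Acta2, the smooth muscle actin of pericytes and myofibroblasts, had 7 against 17, and Col1a1, the main fibroblast collagen, 1 against 7. In lymph node free RNA the list gave 5 UMIs (1.92 CPM). The list of lymph node stromal genes gave 21 UMIs there, of which 19 were Mfge8, a bridging protein for dying cells, and 57 in the tumour, of which 40 were Mfge8 and 14 Pdpn, podoplanin. Ccl21a, the chemokine of stromal cells in the T cell zone, matched more than 1 gene identifier and is uncertain as a single gene.

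Endothelial genes stood at 25.2 CPM in tumour free RNA and 23.1 in its cells, and at 56.7 and 70.3 CPM in the lymph node. Pecam1, an adhesion molecule of endothelium that T cells also carry, made up most of the lymph node value, with 136 UMIs in free RNA and 730 over 566 cells. Egfl7, an endothelial secreted factor, had 26 UMIs in tumour free RNA against 51 in tumour cells, a ratio of 2.44 (1.46 to 3.98), and 9 against 19 in the lymph node. Adipocyte genes gave 2 UMIs in tumour and 0 in lymph node free RNA. Keratinocyte genes stood at 34.5 CPM in lymph node free RNA against 18.6 in cells, a ratio of 1.85. They were led by Krt10, a keratin of upper skin layers, with 67 UMIs against 110 and a ratio of 2.50 (1.82 to 3.42). The list's 200 lymph node cell UMIs were spread over 179 cells, with 5.00% in 3 cells, so the list does not single out keratinocytes.

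B cell transcripts were found mainly in the lymph node. The list gave 178 UMIs in lymph node free RNA, or 68.2 CPM (58.6 to 79.0), against 58.5 CPM in all called cells, a ratio of 1.17 (0.983 to 1.38), so the difference was within counting error. The remaining cells stood at 30.4 CPM, or 44.5% (37.0 to 53.7) of free RNA. Of 6 genes with enough UMIs, 0 were higher and 0 lower by 2-fold, where 1.39% and 3.52% of all genes were. Cd79b, a signalling chain of the B cell receptor, had 84 UMIs in free RNA, 222 in all called cells and 170 in the remaining cells, a ratio to all cells of 1.56 (1.20 to 2.01). Its partner Cd79a had 18, 91 and 20 UMIs, and Ms4a1, the B cell surface protein CD20, had 10, 42 and 12. Fcmr, the receptor for IgM, had 20, 58 and 9. The B cell limit did not separate cells cleanly, since 4 cells lay within 2-fold of it, so cells with B cell UMIs remain in the second reference. Jchain, the joining chain of secreted antibodies, had 13 UMIs against 39 in the lymph node and 0 in tumour free RNA. Only 2 of 9 genes of the plasma cell list were matched in the tables.

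In tumour free RNA the B cell list gave 39 UMIs, or 10.4 CPM, against 9.95 in the cells, and 29 of them were Cd79b. Ms4a1 and Ly6d were at 0. The level was 6.59-fold lower than in lymph node free RNA (4.64 to 9.57).

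**Figure D4:**
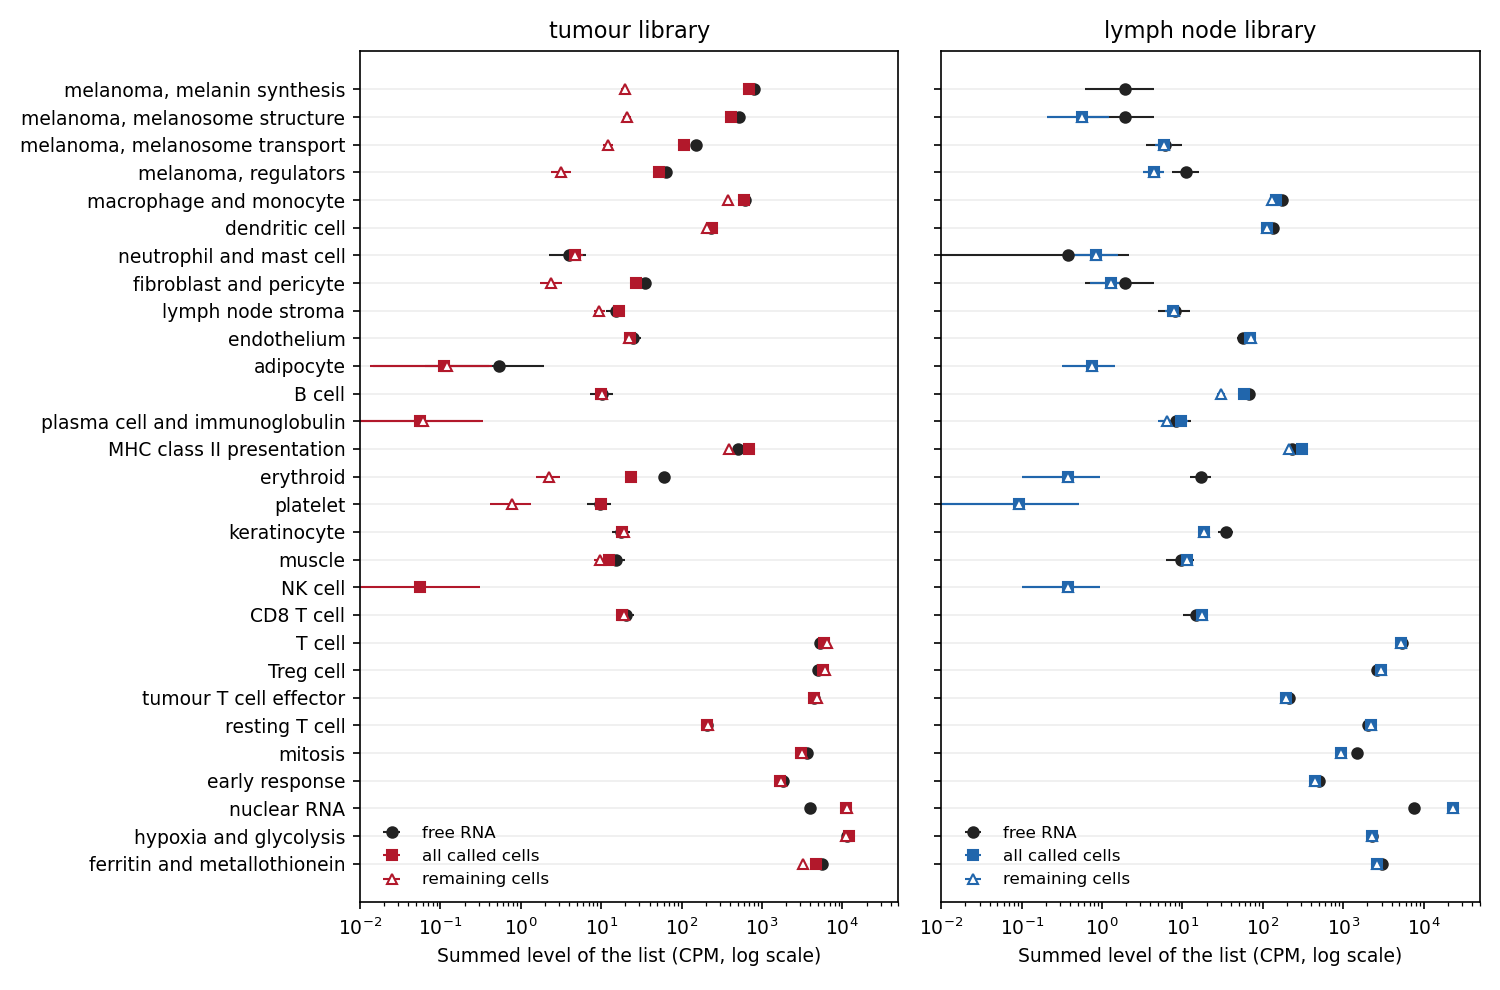
CPM of the cell type lists on a log axis in free RNA, all called cells and the remaining cells of each library, with bars for 95% counting intervals; pools at 0 are not drawn. The tumour melanoma and fibroblast lists drop from free RNA to the remaining cells (34.8 to 2.41 CPM for fibroblast genes), and the nuclear RNA list lies lower in free RNA in both libraries.

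Globin transcripts, which mark red blood cells, stood far higher in free RNA than in called cells. The cell rule leaves out small barcodes with few genes, and 1 uncalled tumour barcode of 1688 UMIs and 72 genes held 1606 globin UMIs. The tumour ratio to cells therefore depends on that rule. Free droplets held 4.83% of the tumour library's globin UMIs, and droplets between the window and the threshold 94.1%. In the lymph node these shares were 87.8% and 2.04%. The 4 globin genes gave 83 UMIs in 79 tumour droplets (22.1 CPM) against 8 in all 1475 tumour cells (0.445 CPM), a ratio of 49.6 (24.0 to 119). Lymph node free RNA gave 43 globin UMIs in 39 droplets (16.5 CPM) against 4 in 2213 cells (0.373 CPM), a ratio of 44.2 (16.1 to 170). The tumour and lymph node levels in free RNA differed by 1.34-fold (0.915 to 1.98), within counting error. The whole erythroid list, of which the globins are 4 genes, stood at 2.62-fold (2.22 to 3.08) in the tumour, where melanoma-high cells held 91.2% of its cell UMIs. Hbb-bs, a beta globin, had 45 UMIs against 3 in the tumour, a ratio of 71.7 (23.0 to 361), and 12 against 1 in the lymph node. Hba-a1 had 16 against 2 in the tumour, and Hba-a2 had 13 against 3. Hbb-bt had 9 UMIs in tumour and 5 in lymph node free RNA with 0 in the cells of either, at least 14.3-fold and at least 6.85-fold higher than the limit of 3 UMIs over all cells. The alpha globin genes are near-identical, as are the beta globin genes, so reads can be split between members and the sum of 4 is the safer value.

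Cck, which encodes the peptide cholecystokinin, had 54 UMIs in tumour free RNA, 7 in all called cells and 0 in lymph node free RNA. Its ratio to the cells was 36.9 (16.7 to 96.0), and among genes with at least 50 UMIs it was the one tumour gene whose interval lay wholly above 2-fold. Of its 84 UMIs in the whole library, 64.3% were in free droplets, and 13 lay in 1 uncalled barcode of 23007 UMIs with 16.3% mitochondrial UMIs. The free RNA level was at least 12.5-fold higher than the limit of a 0 in the lymph node.

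T cell transcripts were present in both free pools at levels near those of the cells. The T cell list stood at 5229 CPM in tumour free RNA against 5927 in its cells, and at 5396 against 5203 CPM in the lymph node, ratios of 0.882 and 1.04. The regulatory T cell list stood at 5045 against 5679 and at 2664 against 2915 CPM. Its members were not shared equally between free RNA and cells. Ctla4, an inhibitory receptor of regulatory T cells, had ratios of 1.43 and 1.73, whereas Ikzf2, the transcription factor Helios, had 0.480 (0.456 to 0.504) in the tumour and 0.614 in the lymph node. Foxp3 had 8 UMIs in tumour free RNA against 286 in cells, 7.48-fold lower (3.75 to 17.5), and 14 against 234 in the lymph node, 4.07-fold lower (2.37 to 7.55). The NK cell list was at 0 in both free pools.

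Nuclear RNAs were lower in free RNA than in cells in both libraries. Malat1, a long noncoding RNA retained in nuclear speckles, had 14467 UMIs in tumour free RNA against 194658 in cells, 2.82-fold lower (2.77 to 2.86). For the lymph node the values were 19324 against 245475, 3.09-fold lower (3.04 to 3.14). The whole nuclear RNA list had ratios of 0.360 and 0.326. Kcnq1ot1, a nuclear antisense RNA, had ratios of 0.443 and 0.459, but Neat1, the scaffold of paraspeckles, had 0.867 and 1.24, so the list did not move as one. Hist1h2ap, a replication histone gene of which similar copies exist, had 376 UMIs against 8664, 4.82-fold lower (4.35 to 5.36), and 124 against 3059, 6.00-fold lower (5.01 to 7.24). Among all clustered histone genes, a group chosen after the values were seen, 2 of 41 were higher and 7 lower in the tumour, where 0.434% and 3.82% of all genes were. In the lymph node 0 of 18 were higher and 4 lower, where 1.39% and 3.52% of all genes were.

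Mitochondrial transcripts took 1.07% of tumour free RNA against 1.60% of cell UMIs, and 1.94% against 2.73% in the lymph node. Of the 13 mitochondrial genes 6 were at least 2-fold lower in free RNA in the tumour and 5 in the lymph node, beside 3.82% and 3.52% of all genes. The ratios ranged widely between genes of the same organelle: mt-Atp6, a subunit of ATP synthase, had 0.832 and 0.914, whereas mt-Nd4l, a subunit of complex I, had 0.205 and 0.146. The mt-Atp8 gene, whose message overlaps that of mt-Atp6, had 0.159 and 0.177. No mitochondrial UMI was seen in 58.5% of the tumour and 53.0% of the lymph node members. Droplets with at least 20% mitochondrial UMIs numbered 45 and 51 and held 2.23% and 1.12% of the free mitochondrial UMIs. Ribosomal protein genes took 23.4% against 25.2% in the tumour and 34.1% against 38.3% in the lymph node. By droplet size, Malat1 took 0.529%, 0.407%, 0.384%, 0.383% and 0.363% of tumour UMIs from the smallest to the largest class. The smallest tumour class held 44 of these UMIs, and its interval (0.385 to 0.710) covered the share of the next class. The lymph node shares of Malat1 were 0.684%, 0.739%, 0.745%, 0.774% and 0.733%.

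Mitosis genes stood higher in free RNA. The list had 3677 against 3062 CPM in the tumour, a ratio of 1.20, and 1504 against 930 CPM in the lymph node, a ratio of 1.62, where 3 of 10 genes passed 2-fold upwards, beside 1.39% of all genes. These were Birc5, survivin, at 2.61-fold (2.29 to 2.97), Ccnb1, cyclin B1, at 2.86-fold (2.21 to 3.68), and Cks2, a partner of cyclin-dependent kinases, at 2.35-fold (2.11 to 2.62). In the tumour the same 3 genes stood at 1.67, 1.50 and 1.74. The proliferation genes Mki67 and Top2a lay the other way, at 0.711 and 0.670 in the tumour and 0.879 and 0.719 in the lymph node, none of them past 2-fold.

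The calls of the libraries were then overlapped. Of 8628 genes with enough UMIs in both, 18 (0.209%) were higher in the tumour and 117 (1.36%) in the lymph node, and 4 were in both lists (22.2% and 3.42% of them): Dgkq, Iqcb1, Tex30 and Zbtb6. On the lower side 285 (3.30%) and 280 genes (3.25%) were called and 108 were shared (37.9% and 38.6% of the lists). They included Arhgap31, a GTPase-activating protein (0.305 and 0.345), Pabpn1, the nuclear poly(A)-binding protein (0.274 and 0.401), Plcxd2 (0.249 and 0.448) and Ppwd1 (0.333 and 0.147). The log2 ratios of free RNA to cells correlated across 5314 genes with at least 200 UMIs in each library, with Pearson's r of 0.82 and Spearman's rho of 0.80. These points share the gene's length and base composition and, within a library, its depth.

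**Figure D5:**
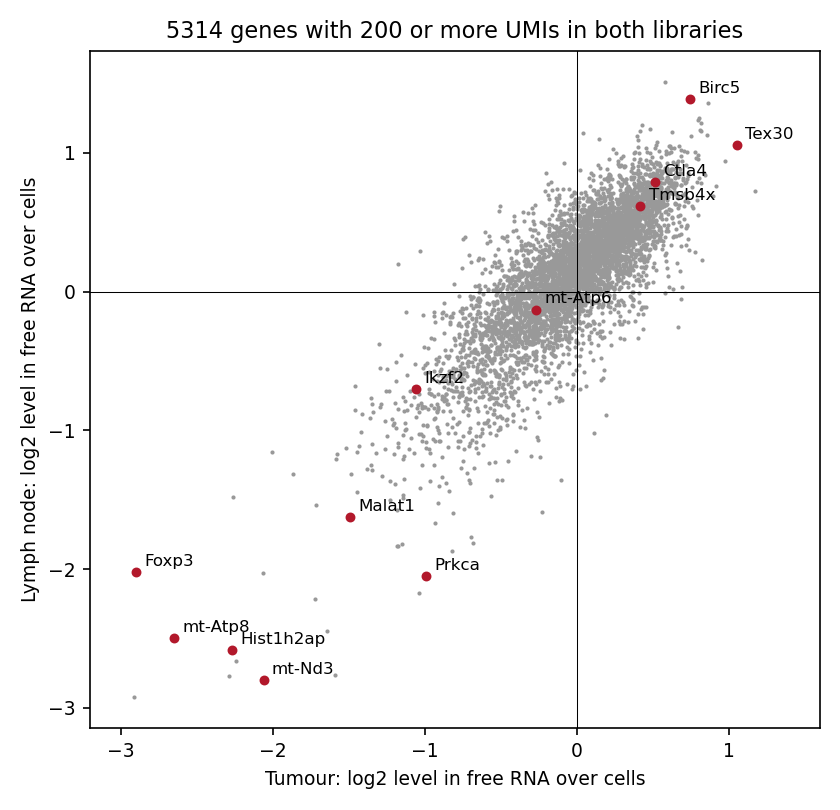
Log2 ratio of free RNA to called cells in the lymph node (vertical) against the same in the tumour (horizontal), 1 point for each of 5314 genes with at least 200 UMIs in each library; red points are labelled genes. Foxp3, Malat1 and Hist1h2ap lie low on both axes, and Birc5, Tex30 and Ctla4 lie above 0 on both.

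The last comparison set the 2 free RNA profiles side by side. Tumour free RNA exceeded lymph node free RNA by 2-fold or more for 803 of 7413 genes (10.8%) and fell short by as much for 467 (6.30%), with the interval wholly beyond 2-fold for 455 and 168. Without mitochondrial and ribosomal protein genes in the scaling, which shifted log2 ratios by -0.24, the split was 597 higher and 782 lower, and with the median ratio set to 1 it was 747 and 551. Pearson's r between the log2 UMIs of the 2 pools was 0.92 across genes.

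Among the lists, melanoma genes stood 72.9-fold higher in tumour free RNA, with 11 of 11 tested genes higher and a median log2 ratio of 8.00 where all genes had 0.06. Over all genes 10.8% were higher by the same call, and the counts for the lists below stand beside that share. Without barcodes that were called cells in the other library the melanoma ratio was 95.1. Macrophage and monocyte genes stood 3.58-fold higher (3.24 to 3.97), with 6 of 6 higher. Most of their 2326 tumour UMIs were Ctsb, which T cells also make, and 483 were Apoe, with 93.6% of its cell UMIs in melanoma-high cells. The 6 genes more specific to myeloid cells stood 6.40-fold higher (4.07 to 10.6). Fibroblast genes stood 18.2-fold higher (7.59 to 56.9), or 30.2-fold (10.1 to 148) without those barcodes, which left 3 lymph node UMIs. Only 1 fibroblast gene had enough UMIs. Sparc gave 90 of the 131 tumour UMIs, and 94.6% of its cell UMIs lay in melanoma-high cells, so the ratio does not single out fibroblasts. Endothelial genes were 2.25-fold lower, with 1 gene tested, and most of the lymph node value was Pecam1, which T cells also carry. Genes of effector function in tumour T cells, a list chosen on these libraries and so no independent evidence, stood 21.2-fold higher (19.5 to 23.1), with 9 of 9 higher. They were led by Gzmb, granzyme B, with 2933 UMIs against 26 (78.2-fold), Ccl4, an inflammatory chemokine, with 1762 against 14 (87.2-fold), and Ccl3, with 523 against 0, at least 121-fold higher. Glycolysis genes stood 4.97-fold higher with 10 of 10 tested genes higher, and mitosis genes 2.44-fold higher with 9 of 10. The metal-binding metallothioneins Mt1 and Mt2 stood 95-fold and 260-fold higher. The T cell list as a whole was level between the 2 pools at 0.969. Leaving out the shared barcodes gave 810 genes higher and 472 lower, and a ratio of 22.1 for the effector list.

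Genes of resting T cells were 9.76-fold lower in tumour free RNA, with 9 of 9 tested genes lower, beside 6.30% of all genes. Igfbp4 of this list had 81.6% of its tumour cell UMIs in melanoma-high cells, so in the tumour it is not limited to T cells. Id3, an inhibitor of E proteins, had 19 UMIs in the tumour against 1050 in the lymph node, 79.7-fold lower (50.8 to 133). Bach2, a repressor that keeps T cells quiescent, had 0 against 55, at least 26.5-fold lower. Gpr83, a receptor found on regulatory T cells, had 1 against 127. Ribosomal protein genes were 1.46-fold lower and mitochondrial genes 1.82-fold lower in tumour free RNA. The free RNA pools thus differed in T cell genes as well as in genes of the tumour and of myeloid cells.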

How the data were processed

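Sorted cells of 1 B16 tumour and 1 lymph node sample were profiled with droplet-based 3' RNA-seq. The deposited files hold raw UMI counts per gene and barcode for 27998 genes and 737280 barcodes, and per the submitters' processing notes they were made with Cell Ranger on mm10; for the Cell Ranger version and the handling of reads that match several genes the sources used here give nothing. Library totals were 23618037 (tumour) and 14000036 (lymph node) UMIs. The members and gene lists were chosen with earlier results of these data known.

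Barcodes with 11 to 100 UMIs were summed per library as free RNA. The cell thresholds of 3834 and 1811 UMIs were set at 10.0% of the UMI total found at percentile 99 among the 3000 largest barcodes; 14 tumour and 13 lymph node barcodes over the threshold exceeded 10% mitochondrial UMIs and were left out. Doublets were not called. Ratios of CPM carry exact conditional-binomial 95% intervals, levels exact Poisson intervals and shares Clopper-Pearson intervals. The interval limits cover counting error only. No p-value was computed, since each group is 1 library. The ratio step was checked on simulated counts. Named genes were Dct, Pmel, Tyrp1 and Mlana, the up to 3 genes of each of 29 lists with most free RNA UMIs, the 10 genes ranked highest each way in each comparison, and the genes only in free RNA; others are list members or were chosen after their values were seen. Alternatives varied the window, the cell threshold, the mitochondrial limit, the scaling, the count minimum, the depth and the shared barcodes; leaving out marker-high cells was chosen after seeing the data. Python 3.11.15, numpy 2.4.6, scipy 1.17.1, pandas 2.3.3 and matplotlib 3.10.9 were used.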

Additional observations from a re-analysis of the deposited data

Results flagged for a closer look

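Droplets between the free RNA window and the cell threshold entered none of the comparisons, and 2 signals in the tumour ones stood above the lymph node ones. The 3639 tumour droplets of this size held 620 UMIs of Dct, Tyrp1, Pmel and Mlana, or 394 CPM, with at most 29 in 1 droplet, while the lymph node droplets held 0. The 4 globin genes stood at 1027 CPM in the same tumour droplets, with 1617 UMIs, against 1 UMI (1.88 CPM) in the lymph node. Of those 1617 UMIs 1606 lay on 1 barcode of 1688 UMIs with 72 genes and 0.0592% mitochondrial UMIs, which held 678 UMIs of Hbb-bs, 464 of Hba-a1, 311 of Hba-a2 and 153 of Hbb-bt. These between-window droplets held 94.1% of all globin UMIs of the tumour library.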

How the results depend on the processing

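No paired analysis was possible because each group is 1 library. Of the alternatives run, 2527 values of named genes, 440 list ratios and 53 other values stayed within the reported value's interval, or for counts near the reported count, and 403, 146 and 43 moved. Among those that moved, 92 gene ratios and 30 list ratios under 2-fold crossed 1; MHC class II genes did so without marker-high cells, at 1.31 in the tumour and 1.09 in the lymph node. Ratios past 2-fold changed direction in 16 gene values and 3 list values. Arhgap31, Malat1, Ppwd1, Sntb1 and the nuclear RNA list did so in both libraries. All these changes were in droplets of 1 to 10 UMIs, and the cause was not tested. There the tumour ratios became 2.0 for Aarsd1, 1.55 for Arhgap31, 0.820 for Gsta1, 0.777 for Gsta2, 1.13 for Malat1, 1.40 for Pabpn1, 2.11 for Plcxd2, 2.23 for Ppwd1, 1.17 for Sntb1, 2.36 for Tsix and 1.14 for the nuclear RNA list. The lymph node ratios became 2.19 for Arhgap31, 1.01 for Malat1, 1.54 for Ppwd1, 1.50 for Prkca, 2.13 for Sntb1, 1.17 for Tmc8 and 1.01 for the list, and the B cell list stood at 1.27 in tumour over lymph node free RNA. The list ratios between the pools were added after seeing the data.

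Counts of genes moved most with the count minimum and the window. Tumour genes higher in free RNA (43) became 135 and 5 at minima of 20 and 200 UMIs, 114 at 11 to 50 UMIs, 1001 at 1 to 10 and 221 without marker-high cells. Lower ones (379) became 625, 158, 727 and 1988, and 185 with cells thinned. Lymph node genes higher (123) became 238, 41, 493 at 51 to 100 UMIs, 1163 at 1 to 10, and 59 and 48 under the other scalings; lower ones (311) became 519, 132, 861 and 1822, and 169 thinned. Tumour over lymph node, 803 higher became 1209, 377 and 99 at 1 to 10 UMIs, and 467 lower became 842, 137, 236 at 51 to 100, 22 at 1 to 10 and 782 rescaled. Genes only in free RNA in the lymph node (1) became 0 at 51 to 100 and at 1 to 10 UMIs, 2 and 0 at 5 and 20 UMIs, and 4 thinned; in the tumour (0) they became 1 at 5 UMIs, 4 thinned and 7 without marker-high cells.

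Called cells held 81.5% of the free RNA melanoma level; this became 85.4 at 11 to 50 UMIs, 116 at 1 to 10, 99.2 and 78.0 at thresholds 2-fold up and down, 94.5 without the mitochondrial limit and 2.72 without marker-high cells. Melanin synthesis (1.18) became 0.953 at 1 to 10, 0.965, 1.23, 1.0 and 40.8 in the same order. Macrophage genes (1.02) became 0.883 at 1 to 10, 0.950 at double and 1.61 without marker-high cells, B cell genes (1.17) 1.91 and 2.25 under the last 2, and fibroblast genes (1.29) 14.4 under the last. Low counts limit the B cell, stromal and globin values.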

Other observations

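The ratio of free RNA to cells varied with the length of a gene's longest GENCODE transcript, a match found for 5310 of the 5314 genes with at least 200 UMIs in each library (99.9%). In 5 equal classes from the shortest to the longest the median log2 ratio was 0.15, 0.15, 0.06, -0.07 and -0.29 in the tumour. In the lymph node it was 0.31, 0.33, 0.23, 0.09 and -0.11. Spearman's rho across genes was -0.37 and -0.31; these genes share a library and are not independent replicates. The 22 processed pseudogenes had medians of -0.63 and -0.93, where all genes had 0.02 and 0.18.

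The early response genes, which tissue handling is known to induce, stood close to the cells in free RNA, with list ratios of 1.12 in both libraries. Pigment gene UMIs per free droplet were spread at most 3 to a droplet, whereas 1 lymph node droplet held 4 of the 11 Lyz2 UMIs there.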
